A study of Mus musculus with 56 samples.

Results

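T cell receptor variable segments are the gene pieces that make up most of the antigen-binding part of each receptor chain. Here they were taken as the rows of the count table whose symbol starts with Trbv (beta chain) or Trav (alpha chain), which gave 165 of 55011 gene symbols, 35 Trbv and 130 Trav. The study sequenced mRNA from sorted regulatory T cells (Tregs, the Foxp3+ CD4+ T cells that restrain immune responses) of mice in 56 libraries, which fell into 20 groups of 2 or 3. Of these, 51 came from C57BL/6 mice carrying the vTreg53 T cell receptor transgene, abbreviated Tg+: 26 spleen libraries and 25 of visceral adipose tissue (VAT). These mice ate normal chow (NCD) or a high-fat diet (HFD) from 12 weeks of age and were sampled after 2, 4, 8 or 16 weeks, or at week 0, with no diet named. Each group held 3 libraries except spleen NCD week 4, VAT HFD week 4 and VAT NCD week 16, which held 2.

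Every Tg+ library was made from 1000 cells sorted for the transgenic receptor (clonotype+), so a high share of the transgene's own segments was set by the sort. The labels name neither the variable segments that vTreg53 uses nor the promoter of the transgene. The protocol calls the mice that were sampled recipients without saying what they received. The other 5 libraries were cultures of VAT Tregs from C57BL/6 mice of the genotype PPARgamma-tdT (KI/KI) with Foxp3-GFP (KI/y), whose label names no transgenic receptor. Those mice, 8 to 10 weeks old, received 2 doses of IL-33 in a week, and their tdT+ VAT Tregs were cultured in IL-2 (2000 U/ml) and IL-33 (10 ng/ml) for 3 days, without (3 control libraries) or with (2 libraries) 50 ng/ml interferon alpha (IFNa), and sorted again for Foxp3-GFP. The labels do not say whether replicates came from separate mice or cultures, so the p-values measure the spread between libraries, which may be technical.

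As background, each developing T cell joins 1 variable segment to a joining segment (with a diversity segment between them in the beta chain) and splices the product to a constant region, Trac for alpha and Trbc1 or Trbc2 for beta. A polyclonal population therefore uses many segments, while a clone, or cells that carry a rearranged transgene, use few. Beta rearrangement is usually limited to a single productive allele per cell, whereas the other alpha allele often rearranges as well. The mouse alpha locus also holds a block that has been copied more than once, and its copies carry a d or an n in their symbols.

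Poly(A) RNA was copied to cDNA, cut with Tn5 transposase and sequenced as read pairs of 38 bases, and the deposited values are read counts per gene. Library totals were 3248686 to 5826965 counts in spleen, 3319873 to 6091439 in VAT and 5408696 to 8764390 in culture. Of these, Trbv rows took 2312 to 5033 counts in spleen, 1439 to 5157 in VAT and 1659 to 2542 in culture, and Trav rows 463 to 1077, 791 to 2404 and 788 to 1347. A segment with no count could thus have had a share of up to 0.0582% to 0.208% of Trbv and 0.125% to 0.648% of Trav in a Tg+ library (3 counts of the total). These limits and the intervals given below cover counting error only. Foxp3 was present throughout, at a mean of 794 CPM (counts scaled to the library total) in spleen, 1000 in VAT and 949 in culture. Pparg, the nuclear receptor that marks VAT Tregs, lay at 0 to 7.76 CPM in spleen and 17.8 to 122 CPM in VAT, which matched the library titles, although the tissue field of the spleen libraries also reads visceral adipose tissue. Of the 2 CD8 T cell markers, Cd8a was at 0 in 15 of 26 spleen and 22 of 25 VAT libraries, while Cd8b1 was above 0 in all of them (10.2 to 28.4 CPM in spleen and 6.57 to 36.8 CPM in VAT).

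Of the 165 segments, 48 had no count in any library (5 Trbv and 43 Trav), and 64 never reached 3 counts in a library. The 3-count level was reached in at least 1 library by 85 segments in spleen, 90 in VAT and 90 in culture. Copies with a d or an n in the symbol made up 42 of the 48 without a count. A read of 38 bases often cannot tell such copies apart. Over all 38-base windows of the GENCODE M21 transcripts, a median of 72.1% of a Trav segment's windows occurred in another gene, against 0% for Trbv. Of the 48 segments without a count, 38 had no window of their own. These windows stand for single reads, while the libraries were sequenced as pairs, so a mate may place a read that its own bases cannot. The treatment of reads that map to several places, the annotation and the strand setting of the counting were not given in the sources used here.

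Both segments that led in the Tg+ libraries are shown first, each with the segment or copies against which its share was read. The leading segment of each chain was the one with the highest mean share over the 51 Tg+ libraries, all weighted equally. For beta these are Trbv2 (Vβ4 in the older naming) and Trbv13-1, each given as the coding part of its V exon, the last of 2 exons of the germline segment, and nothing is in capitals. The Trbv2 stretch of 295 bases lies on the plus strand at chr6:41047701-41047995 and the Trbv13-1 stretch of 291 bases on the plus strand at chr6:41116178-41116468 (mm10, the build of the counts, with GENCODE M21 gene models). All 523 windows of Trbv2 and all 365 of Trbv13-1 were their own.
Trbv2: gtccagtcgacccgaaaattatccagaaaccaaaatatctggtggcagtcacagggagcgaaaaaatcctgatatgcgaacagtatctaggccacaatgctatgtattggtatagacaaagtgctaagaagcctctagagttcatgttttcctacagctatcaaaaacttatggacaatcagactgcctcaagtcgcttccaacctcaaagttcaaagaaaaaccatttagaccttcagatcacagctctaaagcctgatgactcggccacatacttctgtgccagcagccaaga
Trbv13-1: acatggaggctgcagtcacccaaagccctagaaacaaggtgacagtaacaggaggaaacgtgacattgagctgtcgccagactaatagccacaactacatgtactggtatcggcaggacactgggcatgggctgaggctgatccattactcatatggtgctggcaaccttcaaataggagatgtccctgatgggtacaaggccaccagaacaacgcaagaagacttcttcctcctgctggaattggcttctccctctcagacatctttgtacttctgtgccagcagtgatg

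For alpha, the leading segment was Trav14n-3 (of the Trav14 family, Vα2 in the older naming). It is shown with the 2 family members that came next, again as the coding part of the V exon, 280 bases on the plus strand at chr14:53370296-53370575 (Trav14n-3), chr14:53763415-53763694 (Trav14-3) and chr14:53640946-53641225 (Trav14-2). Capitals mark the bases that differ from Trav14n-3: 5 in Trav14-3 (98.2% identity) and 14 in Trav14-2 (95% identity).
Trav14n-3: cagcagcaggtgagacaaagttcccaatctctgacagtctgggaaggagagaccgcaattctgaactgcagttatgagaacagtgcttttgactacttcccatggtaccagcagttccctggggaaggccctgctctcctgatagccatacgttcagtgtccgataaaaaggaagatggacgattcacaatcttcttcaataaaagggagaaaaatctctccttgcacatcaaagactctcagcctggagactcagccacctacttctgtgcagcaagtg
Trav14-3: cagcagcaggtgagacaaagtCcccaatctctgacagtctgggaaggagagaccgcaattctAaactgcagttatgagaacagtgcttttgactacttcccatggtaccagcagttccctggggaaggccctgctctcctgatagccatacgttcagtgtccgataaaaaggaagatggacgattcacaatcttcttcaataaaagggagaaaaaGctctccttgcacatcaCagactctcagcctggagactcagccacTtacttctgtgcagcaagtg
Trav14-2: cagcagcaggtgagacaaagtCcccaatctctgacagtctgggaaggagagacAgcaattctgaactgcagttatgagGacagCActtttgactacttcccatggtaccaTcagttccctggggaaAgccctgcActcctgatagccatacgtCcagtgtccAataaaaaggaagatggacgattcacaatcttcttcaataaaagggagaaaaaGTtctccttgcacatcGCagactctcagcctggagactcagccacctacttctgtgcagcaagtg
Only 156 of the 324 windows of Trav14n-3, 133 of 347 of Trav14-3 and 146 of 350 of Trav14-2 were their own. A read pair that covers no base by which the copies differ fits more than 1 of them, so the division of counts among Trav14 symbols is uncertain. The family has 9 symbols, 5 of them with counts. Over the same 280 bases Trav14d-3-dv8 had 96.8% identity to Trav14n-3 and Trav14-1 had 93.6%. Trav14d-1, Trav14d-2, Trav14n-1 and Trav14n-2 had no window of their own and no count.

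In the beta chain, the question was how far the Tg+ libraries shared 1 segment and whether tissue, diet or week moved it. Trbv2 and Trbv13-1 together made up 97.4% ± 0.726 (SD, n = 26) of Trbv counts in spleen and 97.5% ± 0.989 (SD, n = 25) in VAT, and the balance between them differed by tissue. Trbv2 was 93.0% ± 2.09 of Trbv counts in spleen and 80.8% ± 6.21 in VAT. Trbv13-1 was 4.35% ± 2.06 in spleen and 16.7% ± 6.03 in VAT.

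The lowest, median and highest Trbv2 shares were 87.7%, 93.3% and 97.0% in spleen and 70.3%, 79.96% and 96.3% in VAT. Of the 25 VAT libraries, 21 lay below every spleen library. Counting error was small beside this spread: the 87.7% of week 0 spleen replicate 2 had an exact (Clopper-Pearson) 95% interval of 86.7% to 88.7%, and the 96.3% of VAT NCD week 4 replicate 3 one of 95.3% to 97.1%. The difference, VAT minus spleen averaged over the 9 combinations of week and diet, was -12.1 percentage points (SE 1.25). It was negative in 9 of 9 combinations (p = 1e-05, the smallest that 100000 resamples can give, two-sided permutation within combinations; adjusted p = 6e-05 over the 12 share comparisons made).

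Trbv13-1 moved the other way. Its lowest, median and highest shares were 1.28%, 4.02% and 9.83% in spleen and 2.00%, 16.2% and 27.0% in VAT, and 22 of 25 VAT libraries lay above every spleen library. The other 3 were VAT NCD week 4 replicate 3 (2.00%), HFD week 4 replicate 3 (6.92%) and HFD week 16 replicate 3 (7.22%), which were also those with the highest Trbv2 shares in VAT (96.3%, 92.0% and 89.5%). Among them, only NCD week 4 replicate 3 lay under the spleen mean for Trbv13-1. On the CPM scale, where the total of the Trbv rows is free to vary, Trbv2 averaged 703 in spleen and 465 in VAT, and Trbv13-1 33.9 and 96.1.

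**Figure D1:**
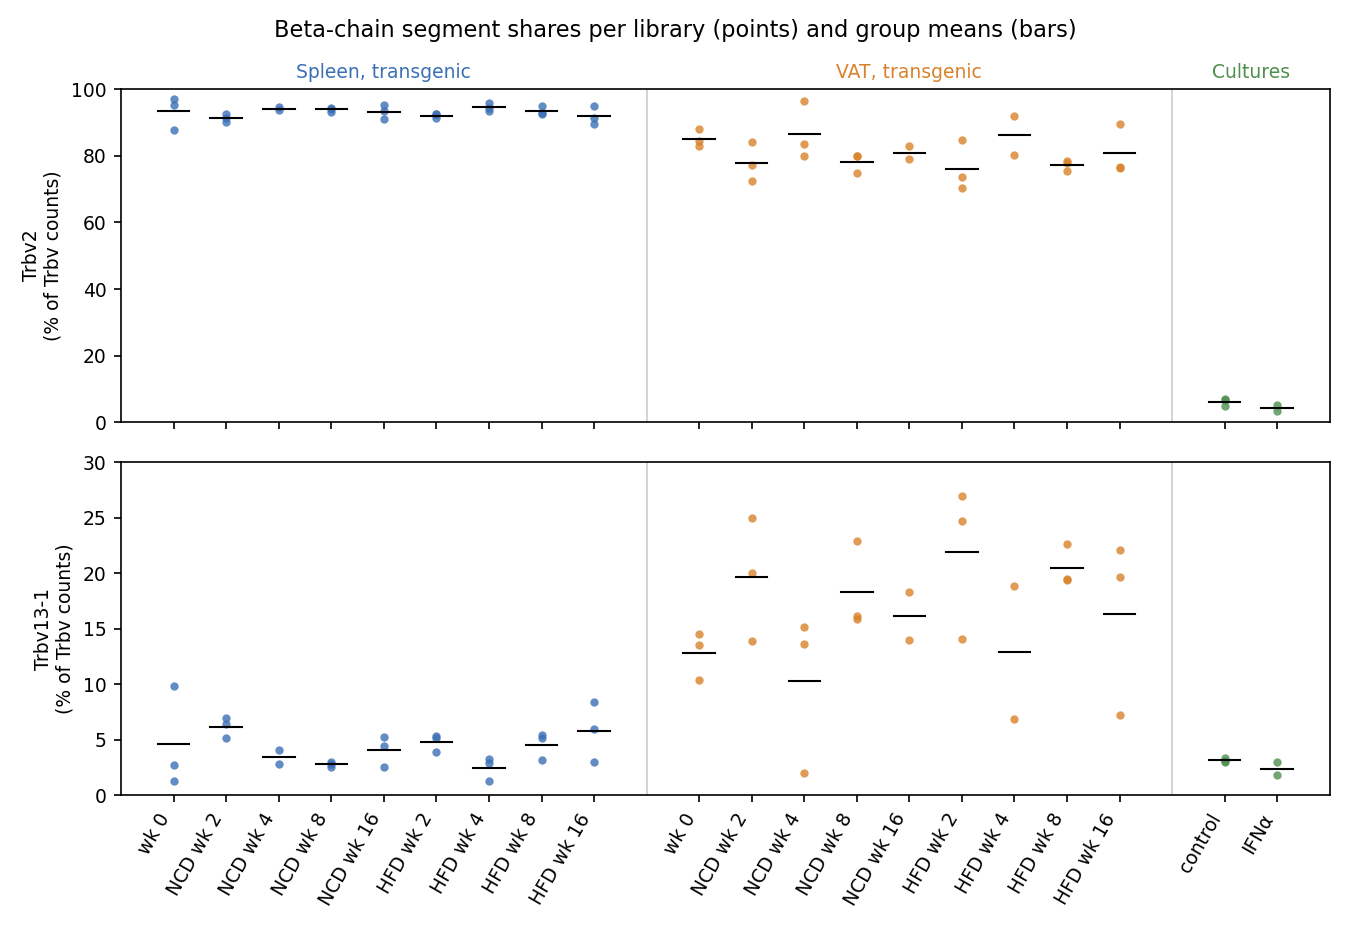
Share of Trbv counts (percent, y axis) held by Trbv2 and by Trbv13-1 in every library, by group along the x axis (tissue, diet, week, and the 2 culture groups). Trbv2 lay between 87.7% and 97.0% in spleen, between 70.3% and 96.3% in VAT and between 3.56% and 6.88% in culture, and Trbv13-1 between 1.28% and 9.83% in spleen and between 2.00% and 27.0% in VAT.

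The other Trbv symbols shared what was left in the Tg+ libraries. The next 3 by mean share were Trbv12-1 at 0.313% in spleen and 0.635% in VAT, Trbv12-2 at 0.513% and 0.477%, and Trbv13-2 at 0.389% and 0.374%. After Trbv2 and Trbv13-1, Trbv12-1 was the highest segment in 15 of 25 VAT libraries and Trbv12-2 in 12 of 26 spleen libraries. Trbv12-1 ends 1940 bases before Trbv13-1 starts on the same strand, and Trbv12-2 starts 2383 bases after Trbv13-1 ends. The number of Trbv segments with at least 3 counts was 9.77 ± 1.34 per spleen library, 8.48 ± 2.33 per VAT library and 21.6 ± 1.14 per culture. Weighted by share (exponential of the Shannon entropy), the effective number of Trbv segments was 1.42 in spleen, 1.83 in VAT and 13.7 in culture.

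In the alpha chain, the Trav14 family led in both tissues, in different proportions of its copies. All Trav14 symbols together made up 70.9% ± 4.84 (SD, n = 26) of Trav counts in spleen and 84.9% ± 4.79 (SD, n = 25) in VAT. Within the family, Trav14n-3 held 93.9% ± 4.81 in VAT but 44.9% ± 10.4 in spleen, where Trav14-2, Trav14-3 and Trav14-1 held most of the rest. Since these copies share much of their sequence, the split is one of reads as counted, while the family total depends on it less. With all Trav14 symbols summed into 1 segment, a choice made after the data were seen, VAT was higher by 13.9 percentage points averaged over weeks and diets (adjusted p = 6e-05, permutation within combinations).

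As a share of all Trav counts, Trav14n-3 ran from 20.6% through a median of 29.3% to 59.3% in spleen, and from 60.3% through 80.7% to 90.6% in VAT. Every VAT library lay above every spleen library. The highest spleen library, HFD week 4 replicate 3 at 59.3%, and the lowest VAT library, HFD week 16 replicate 3 at 60.3%, came within 1 point of each other. The difference was 47.8 percentage points (SE 2.31) and positive in 9 of 9 combinations of week and diet (p = 1e-05, the smallest possible, two-sided permutation within combinations; adjusted p = 6e-05 over the 12 comparisons). In CPM, Trav14n-3 averaged 50.4 in spleen and 293 in VAT.

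Trav14-2 was the mirror image, with 20.02% ± 5.71 of Trav counts in spleen (10.3% to 34.4%) and 1.97% ± 1.96 in VAT (0.142% to 9.86%), again with no overlap. It was above Trav14n-3 itself in 3 spleen libraries: NCD week 8 replicate 1 (25.2% against 23.1%), NCD week 16 replicate 3 (34.4% against 20.6%) and HFD week 8 replicate 2 (28.8% against 23.0%). Trav14-3 averaged 12.0% in spleen and 2.22% in VAT, Trav14-1 4.03% and 0.503%, and Trav14d-3-dv8 2.78% and 0.387%. Segments outside the family took 29.1% of Trav counts in spleen and 15.1% in VAT. The effective number of Trav segments was 12.0 in spleen, 3.16 in VAT and 37.5 in culture.

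**Figure D2:**
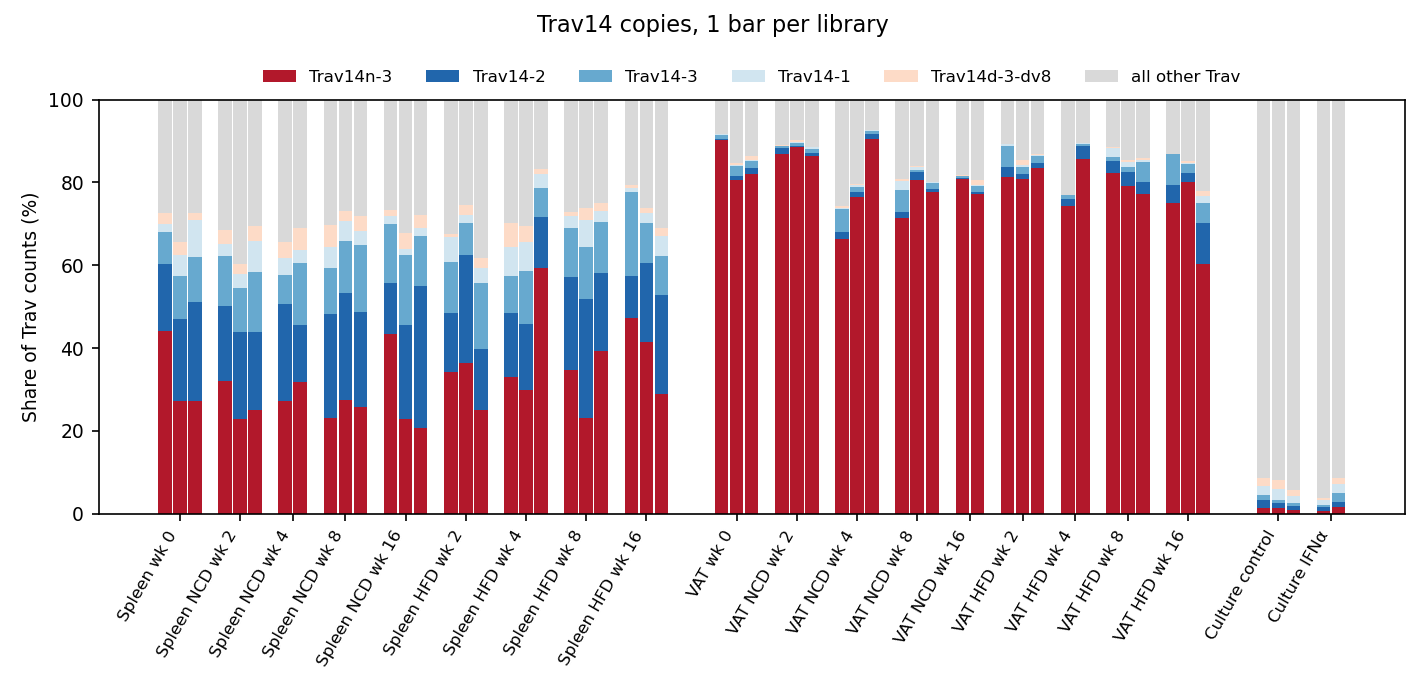
Share of Trav counts (percent, y axis) of the 5 Trav14 symbols with counts, and of all other Trav (grey), stacked with 1 bar per library, by group along the x axis. In VAT Trav14n-3 is the largest part of each bar (60.3% to 90.6%), in spleen Trav14n-3 is 20.6% to 59.3% with Trav14-2 and Trav14-3 above it, and in culture the whole family is small (mean 6.96%).

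Outside the Trav14 family and the pair of leading beta segments, a segment reached 5% of its chain in only 5 Tg+ libraries. These were Trav17 at 7.004% in spleen HFD week 2 replicate 3, Trav3-3 at 5.07% in spleen NCD week 16 replicate 2, Trav19 at 5.07% in VAT NCD week 16 replicate 2, Trav3-1 at 5.48% in VAT HFD week 4 replicate 3 and Trav5-4 at 5.90% in VAT NCD week 4 replicate 2. Each was a different segment in a different group.

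Shares do not show how much of each chain there was, so the segments were also set against their constant regions. Trbv rows together had 31.4 ± 2.37 counts per 100 Trbc1 plus Trbc2 counts in spleen and 41.1 ± 5.76 in VAT. Trav rows had 12.6 ± 1.24 counts per 100 Trac counts in spleen and 13.6 ± 1.03 in VAT, against 30.4 ± 2.37 in culture. Per 100 Trac counts, Trav14n-3 had 4.04 ± 1.21 in spleen and 10.8 ± 1.34 in VAT, and segments outside the Trav14 family had 3.68 and 2.05. The tissue contrast of Trav14n-3 thus held on this scale, with VAT above spleen. All shares and ratios are of counts, which were not divided by gene length.

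For Trbv2 the direction depended on the denominator. Per 100 Trbc counts it was 29.2 ± 1.89 in spleen and 33.1 ± 4.44 in VAT, a difference of 3.89 in the opposite direction to the share (p = 5e-05, permutation within combinations; adjusted p = 2.58e-04). Within VAT this ratio was 38.0 ± 1.88 (n = 3) at week 0 and 40.4 ± 3.66 (n = 3) at NCD week 2, and group means lay between 30.2 and 32.8 at NCD weeks 4, 8 and 16 and between 30.3 and 31.3 in the HFD groups.

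**Figure D3:**
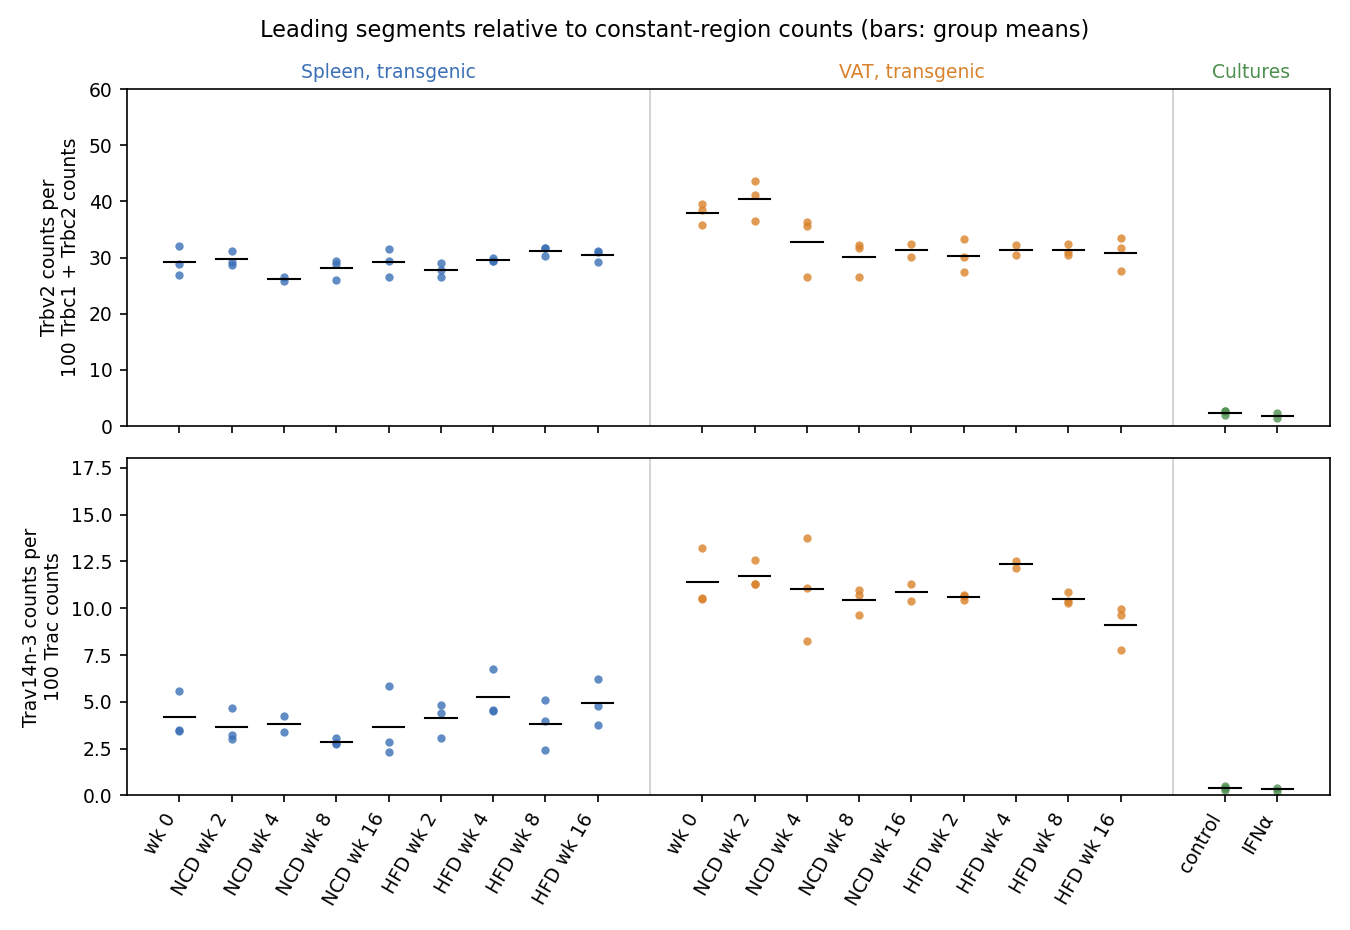
Counts of Trbv2 per 100 counts of Trbc1 plus Trbc2, and of Trav14n-3 per 100 counts of Trac, in every library by group (x axis). Trbv2 averaged 29.2 in spleen and 33.1 in VAT, with VAT week 0 and NCD week 2 highest (group means 38.0 and 40.4), and Trav14n-3 averaged 4.04 in spleen and 10.8 in VAT.

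In a fit across all genes (edgeR quasi-likelihood test on week 0 and NCD libraries, Benjamini-Hochberg adjustment over 14974 genes), 19 of the 40 segments that passed the count filter differed between VAT and spleen, 11 higher and 8 lower in VAT. The background was high: 59.9% of all genes tested were called, 29.6% higher and 30.3% lower, and the members' shares are to be read against that. A segment that passed the filter only through the tissue where it is high had to differ, so the count describes the segments tested and not all 165. The replicates of all 10 groups shared 1 estimate of the spread. In bulk libraries, fewer cells of a type and less RNA per cell cannot be told apart.

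Among those higher in VAT were Trav14n-3 (log2 fold change 3.13, SE 0.25, adjusted p = 1.97e-09) and Trbv13-1 (1.65, SE 0.30, adjusted p = 1.14e-04). Trav6-3 (2.85, SE 0.36, adjusted p = 6.15e-08), Trav21-dv12 (1.79, SE 0.33, adjusted p = 3.28e-05) and Trav19 (2.00, SE 0.50, adjusted p = 0.00112) rose as well, all of them minor segments of the alpha chain. Only 45 of the 363 windows of Trav6-3 were its own, so its counts depend on how reads were divided among Trav6 copies. Trav21-dv12 had all 323 windows to itself and Trav19 404 of 409. The other 6 called higher in VAT included Trbv1, which passed the count filter in only 26 of the 28 fits that left out 1 library. Its highest values in VAT without HFD were 30 counts (NCD week 4 replicate 1) and 18 counts (NCD week 2 replicate 2). It passed the filter only through these VAT libraries, so its direction was fixed by the filter and the call is a description. Trav7-3 also passed the filter in only 26 of 28 such fits. The 6 were Trav10, Trav7-3, Trbv12-1, Trbv1, Trav5-4 and Trav9-1. Of these, Trav7-3, Trav5-4 and Trav9-1 were lost without VAT NCD week 16 replicate 2 (1.39, 1.27 and 1.27, adjusted p = 1, 0.0693 and 0.0593), Trav5-4 and Trbv12-1 without VAT NCD week 4 replicate 2 (0.96 and 0.73, adjusted p = 0.0873 and 0.0565), and Trav9-1 without VAT NCD week 8 replicate 2 (1.19, adjusted p = 0.0567).

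Among those lower in VAT were 4 Trav14 copies: Trav14-2 (-2.999, SE 0.24, adjusted p = 5.98e-12), Trav14-3 (-1.57, SE 0.24, adjusted p = 1.39e-06), Trav14-1 (-2.09, SE 0.33, adjusted p = 2.67e-06) and Trav14d-3-dv8 (-1.82, SE 0.37, adjusted p = 9.91e-05). Trbv29 fell too (-2.52, SE 0.55, adjusted p = 2.49e-04), with Trbv19 and Trav15-1-dv6-1. Trbv2 was the least changed of the 8 (-0.35, SE 0.11, adjusted p = 0.0118).

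The genes of the receptor complex moved in both directions between the tissues. On a list of 16 genes for the receptor's constant regions, CD3 chains, proximal kinases and assembly enzymes, 13 were tested. Of these, 2 were higher and 10 lower in VAT, with a median log2 fold change of -0.50 beside -0.04 over all genes tested. The background was 29.6% of all genes tested called higher and 30.3% lower. Trac, the alpha constant region, rose (1.498, SE 0.13, adjusted p = 3.69e-09), from a mean of 1200 CPM in spleen to 2645 in VAT over all Tg+ libraries, and so did Cd247, the CD3 zeta chain (0.40, SE 0.037, adjusted p = 1.51e-10). Both beta constant regions fell, Trbc1 by 1.16 (SE 0.051) and Trbc2 by 0.45 (SE 0.10) on the log2 scale. Cd3e (-0.92), Cd3d (-0.71) and Cd3g (-0.34), the other chains of the CD3 complex, fell, as did the kinases Lck and Zap70 and the adaptor Lat. The 10 also include Dntt, the enzyme that adds bases at the junctions, which passed the count filter in the spleen fit but not in the VAT fit, so that its direction was fixed by the filter. Total Trbv counts averaged 756 CPM in spleen and 575 in VAT, and total Trav counts 150 and 360.

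Diet was compared within each tissue, with weeks as strata. Trbv2 shares of HFD and NCD libraries did not differ beyond their spread: HFD minus NCD was -0.16 points in spleen (SE 0.633) and -0.82 points in VAT (SE 2.699, lower in 4 of 4 weeks), each with adjusted p = 0.794 (exact permutation within weeks, over the 12 comparisons). In VAT, Trav14n-3 shares differed by -1.87 points (SE 2.94, adjusted p = 0.673). At week 2 the 3 HFD libraries (81.2%, 80.9% and 83.5%) lay below the 3 NCD libraries (86.8%, 88.6% and 86.4%), and at weeks 4, 8 and 16 the diets overlapped.

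In spleen the Trav14n-3 share was 36.1% ± 10.0 (n = 12) on HFD and 27.5% ± 6.41 (n = 11) on NCD. HFD minus NCD was 8.40 points (SE 3.91, p = 0.0339, exact permutation within weeks), which did not pass after adjustment (adjusted p = 0.0677). It passed in 6 of the 23 fits that left out 1 library (spleen NCD week 2 replicate 1, NCD week 16 replicate 1, HFD week 2 replicate 3, HFD week 4 replicate 2, HFD week 8 replicate 2 or HFD week 16 replicate 3; 9.07 to 10.2 points, adjusted p = 0.0260 to 0.0466). The weekly means, HFD against NCD, were 31.9% and 26.7% at week 2, 40.7% and 29.5% at week 4, 32.4% and 25.5% at week 8 and 39.2% and 29.0% at week 16. The HFD mean was thus higher in 4 of 4 weeks, but the libraries overlapped in each of them. The 3 HFD week 4 libraries, for example, had 33.1%, 29.8% and 59.3%, and the 2 NCD libraries 27.2% and 31.7%. The diet effects in the 2 tissues differed by -10.3 points, VAT minus spleen (p = 0.0438, permutation of the diet labels within weeks; adjusted p = 0.0875 over both leading segments), which also missed the threshold.

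Across all genes, no segment of the 31 tested in spleen was called for diet at any week or for the mean of weeks (edgeR quasi-likelihood test, 14686 genes). The background was 0.0272%, 1.24%, 0% and 0% of genes at weeks 2, 4, 8 and 16 and 0.933% for the mean of weeks. At an unadjusted p under 0.05 there were 1, 1, 2, 0 and 2 segments. Trav14n-3 had a log2 fold change of 0.71 (SE 0.26) for the mean of weeks, with adjusted p = 0.204, and passed only without spleen NCD week 16 replicate 1 (0.90, adjusted p = 0.0443).

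In VAT, none of the 40 segments tested was called at weeks 2, 4 or 8 (edgeR quasi-likelihood test, 14164 genes, backgrounds 0.0565%, 0.0212% and 1.33%; 5, 3 and 5 segments at an unadjusted p under 0.05). At week 16, 2 were called (background 9.24%), and 2 for the mean of weeks (background 4.2%). These were in both cases Trav14-2, which was higher on HFD, and Trbv1, which was lower but passed the count filter only through NCD libraries. A count of 2 in 40 lies below the background of week 16 and near that of the mean of weeks.

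Trav14-2 had shares of 4.23%, 2.10% and 9.86% of Trav counts in the HFD week 16 libraries (78, 39 and 78 counts) and 0.142% and 0.523% in the NCD libraries (3 and 7 counts). The groups did not overlap, and the highest value belonged to the library with the lowest Trav14n-3 share in VAT. The log2 fold change was 3.63 (SE 0.85, adjusted p = 0.00548), and for the mean of weeks 1.67 (SE 0.35, adjusted p = 0.00484). The week 16 call was lost without VAT NCD week 16 replicate 2 (3.05, adjusted p = 0.123). At week 8 the shares were 2.87%, 3.41% and 2.94% on HFD and 1.64%, 1.96% and 0.787% on NCD, also without overlap. The groups overlapped at week 2 (2.43%, 1.25% and 1.17% on HFD against 1.54%, 0.247% and 0.694%) and at week 4 (1.49% and 3.21% against 1.86%, 1.17% and 1.06%). All of these stayed under the lowest spleen library (10.3%). Trav14-2 was not alone in separating by diet. Trav14-3, which was not called, lay wholly higher on HFD at week 16 (means 4.81% and 0.970%) and week 2 (2.83% and 0.733%). Trav14d-3-dv8 did so at week 8 (0.425% and 0.179%), while Trav14-1 overlapped at every week. In the beta chain, Trbv12-1 lay wholly lower on HFD in VAT at week 2 (means 0.595% and 0.943% of Trbv counts) and week 8 (0.624% and 1.12%). In spleen, Trbv13-1 lay wholly higher on HFD at week 8 (4.58% and 2.80%). Groups of 2 or 3 libraries can separate by chance, and how many of all genes separate in this way was not counted.

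**Figure D4:**
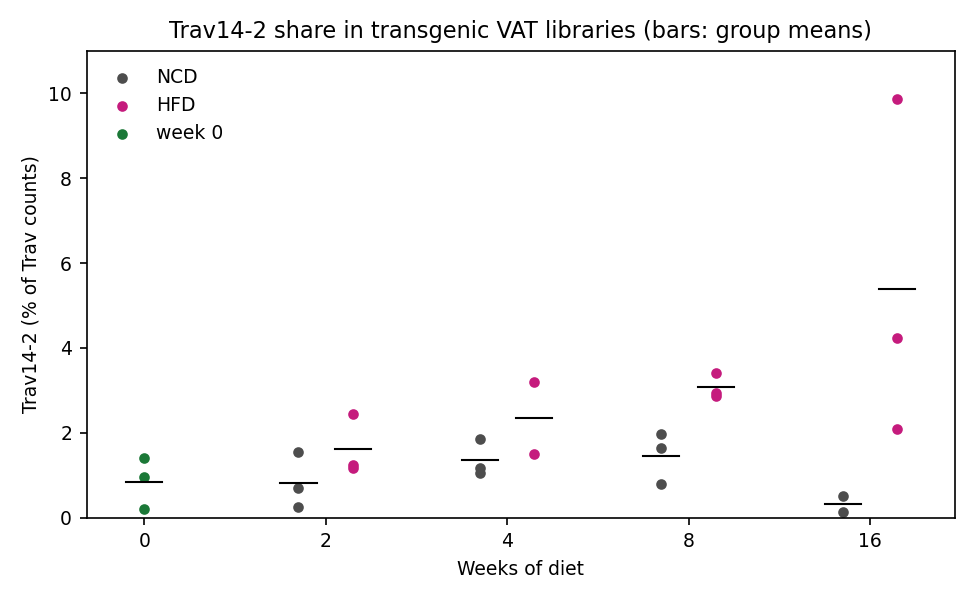
Share of Trav counts (percent, y axis) held by Trav14-2 in each VAT library, by week on diet (x axis) and diet, with bars at the group means and week 0 shown on its own. The HFD libraries lie above the NCD libraries at weeks 8 and 16, with 9.86% the highest and 0.142% the lowest value at week 16, and overlap with them at weeks 2 and 4.

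Trbv1 rested on few counts. It had 0 counts in all 3 HFD week 16 libraries and 7 and 5 in the NCD libraries. The NCD level in CPM was 5.83-fold above a floor of 3 counts over the HFD group. That ratio gives the 12 NCD counts no error and is not a lower bound. The call at week 16 (adjusted p = 0.0404) was lost on leaving out any 1 of the 5 libraries (adjusted p = 0.0921 to 0.127). For the mean of weeks its adjusted p was 0.0140, and 30 counts in VAT NCD week 4 replicate 1 were its highest value in VAT. Without that library, or without VAT NCD week 2 replicate 2 (18 counts), Trbv1 did not pass the count filter and Trav14-2 was the only segment called. No HFD library had more than 5 counts, so Trbv1 passed the filter only through NCD libraries, where it is high. Its direction for the mean of weeks was thus fixed by the filter, and that call is a description.

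The VAT week 16 libraries differed by diet in other ways, whose part in these calls was not tested. The summed level of 5 VAT Treg markers (Pparg, Il1rl1, Klrg1, Areg and Gata3) was 5898 to 6603 CPM on NCD and 2377 to 4158 CPM on HFD. The 5 B cell markers summed to 320 to 333 CPM on NCD and 1639 to 2450 CPM on HFD. Nearly all of that was Ighm (315 to 331 against 1626 to 2425 CPM), and Cd79b, a chain of the B cell receptor complex, lay at 1.04 to 3.00 CPM on NCD and 11.1 to 18.2 CPM on HFD. Its partner chain Cd79a was at most 0.691 CPM on NCD and 1.42 CPM on HFD. 

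Of the receptor complex genes, 12 were tested for diet in VAT. The background was 9.24% of all genes tested at week 16 and 4.2% for the mean of weeks. At week 16, among those named here, the kinase Lck (0.43) was higher on HFD and Cd247 lower (-0.37), with a list median of 0.19 beside 0.02 over all genes. Without VAT NCD week 16 replicate 3 neither of these passed (0.43 and -0.40, adjusted p = 0.0764 and 0.148). Cd247 at week 16 was also lost without VAT HFD week 16 replicate 2 or 3 (-0.38 and -0.28, edgeR adjusted p = 0.0698 and 0.184). With RLE scaling (edgeR adjusted p = 0.0533) or no filter on low counts (0.0641) it did not pass either. For the mean of weeks, among those named here, Lck (0.18) and Cd3d (0.24) were higher, and no gene of the list was lower (list median 0.13, all genes -0.01). Without VAT HFD week 4 replicate 3 neither passed (adjusted p = 0.0989 and 0.0545), and Lck was lost in 12 of the 22 fits that left out 1 library. In spleen 0 of 13 were called at any week or for their mean.

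Time was compared without HFD, by setting weeks 8 and 16 on NCD against week 0 and NCD week 2. Trav14n-3 fell in VAT from 85.8% ± 3.75 (n = 6) to 77.6% ± 3.87 (n = 5) of Trav counts, a difference of -8.22 points (SE 2.30, p = 0.0130, exact permutation test, two-sided; adjusted p = 0.0312). The early values were 90.2%, 80.6% and 82.1% at week 0 and 86.8%, 88.6% and 86.4% at week 2, and the late ones 71.3%, 80.7% and 77.8% at week 8 and 80.9% and 77.1% at week 16. The sets overlapped, since week 0 replicate 2 lay below 2 of the late libraries. NCD week 4, which lies between the sets and was in neither, ran from 66.3% through a median of 76.6% to 90.6% (n = 3). Its lowest value was thus below every late library and its highest above every early one. The adjusted p rose to 0.0571, with differences of -8.97 to -7.34, in 5 of the 11 fits that left out 1 library (week 0 replicate 1 or 3, or any NCD week 2 library). Set against Trac, the difference was -0.96 counts per 100 (adjusted p = 0.273, exact permutation test). The summed B cell markers (5 of 5 in the table) lay at 1216 to 6085 CPM in the early and 320 to 1439 CPM in the late libraries. Gamma-delta T cell markers (3 of 6) lay at 32.8 to 78.0 CPM early and 14.04 to 33.6 CPM late, and VAT Treg markers (5 of 5) at 3318 to 4329 CPM early and 4452 to 6603 CPM late. Their part in the change was not tested.

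Trbv2 in VAT changed by -2.20 points over the same weeks, and in spleen Trbv2 changed by 1.17 and Trav14n-3 by -2.58 points, all with adjusted p = 0.673 (exact permutation tests). Per 100 Trbc counts, the Trbv2 difference in VAT was -8.57 (from 39.2 ± 2.93 to 30.6 ± 2.48) and passed (adjusted p = 0.0052, exact permutation test). Across all genes, NCD week 16 against week 0 gave no called segment in either tissue (edgeR quasi-likelihood test; 0 of 31 in spleen with a background of 0.654%, and 0 of 40 in VAT with a background of 0.713%). At an unadjusted p under 0.05 there were 5 segments in spleen and 2 in VAT.

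The cultures, from a line without the transgene in its label, used a broad set of segments. Trbv2 had 4.85%, 6.74% and 6.88% of Trbv counts in the control cultures and 3.56% and 5.15% with IFNa, and Trav14n-3 had 1.47%, 1.34%, 0.943%, 0.761% and 1.52% of Trav counts in the same order. Against the Tg+ VAT libraries without HFD (n = 14, means 81.8% and 81.1%), the 5 cultures were lower by 76.4 points for Trbv2 and by 79.9 points for Trav14n-3. Since both segments were chosen as the highest in the Tg+ libraries, which were sorted for the transgenic receptor, these differences are a description, with no test. Mouse line, clonotype sort, IL-33 treatment and culture differ together here and cannot be told apart. An average of 55.0 ± 4.0 Trav segments per culture had at least 3 counts, against 26.5 ± 3.84 per VAT and 27.8 ± 3.32 per spleen library.

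**Figure D5:**
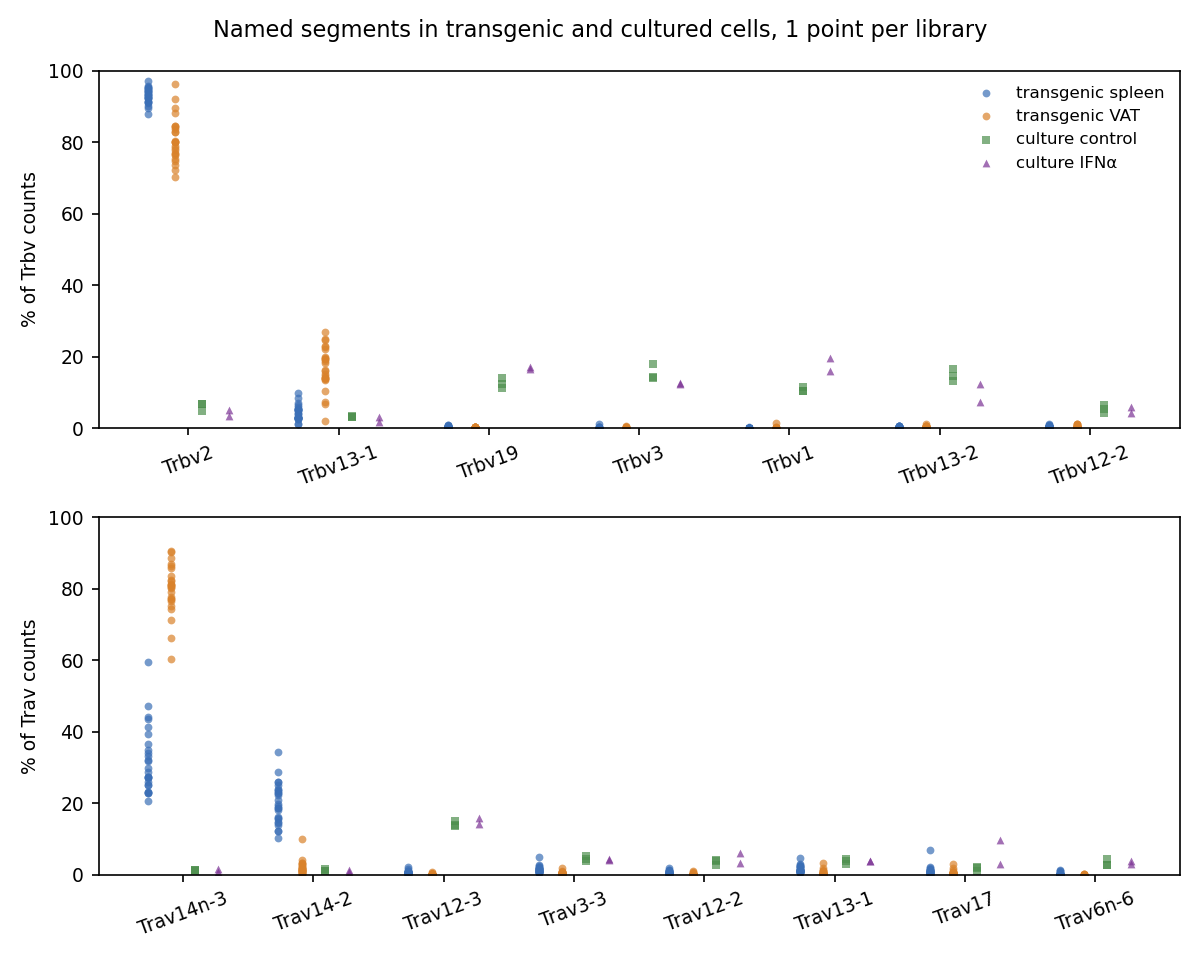
Share (percent, y axis) of Trbv counts (top) and Trav counts (bottom) held by named segments (x axis), with 1 point per library, for Tg+ spleen, Tg+ VAT, control cultures and IFNa cultures. Trbv2 and Trav14n-3 lead in the Tg+ sets, while in culture no Trbv segment is far above the others and Trav12-3 (13.8% to 15.9%) is the highest Trav segment.

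In the control cultures Trbv3 (15.5%), Trbv13-2 (14.8%), Trbv19 (12.6%) and Trbv1 (10.8%) had the highest mean shares of Trbv counts, before Trbv2 (6.16%) and Trbv12-2 (5.42%). Trbv16 (5.66% and 5.43%) and Trbv26 (5.76% and 5.31%) also reached 5% in 2 cultures each, and Trbv31 (6.65%) in 1. Of the alpha segments, Trav12-3 held 14.3% with control medium and 15.0% with IFNa. With control medium it was followed by Trav3-3 (4.43%), Trav13-1 (3.74%), Trav12-2 (3.63%) and Trav6n-6 (3.25%). With IFNa, where the mean of Trav17 was 6.35%, these held 4.32%, 3.82%, 4.6% and 3.42%. The highest segments of the cultures were minor in the Tg+ libraries: Trav12-3 averaged 0.674% in spleen and 0.136% in VAT, and Trbv19 0.378% and 0.183%. Trav14n-3, which led in both Tg+ tissues, held 17.6% of its own family in culture, below its 44.9% in spleen.

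IFNa was compared with control medium in the cultures. Of 57 segments tested, 3 were called, all higher with IFNa (edgeR quasi-likelihood test, 12604 genes). In this comparison 21.7% of all genes were called and 10.6% higher, against which the 3 of 57 is to be read. Trbv1 rose from 10.8% ± 0.724 (n = 3) to 17.8% ± 2.59 (n = 2) of Trbv counts (log2 fold change 0.98, SE 0.16, adjusted p = 1.22e-04), and Trbv19 from 12.6% to 16.8% (0.66, SE 0.15, adjusted p = 0.00279). Trbv1 had 235, 232 and 185 counts in the control cultures and 265 and 499 with IFNa.

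Trav17, the other segment called, had 24, 13 and 18 counts in the control cultures and 77 and 29 with IFNa (1.80, SE 0.53, adjusted p = 0.0301). Its share was 9.77% in IFNa replicate 1 and 2.93% in replicate 2, and the call was lost without IFNa replicate 1 (0.60, adjusted p = 0.524) and without control replicate 2 or 3 (adjusted p = 0.116 each). Trbv13-2 had 14.8% in control and 9.86% in IFNa cultures, which did not pass across all genes (-0.37, adjusted p = 0.142). With 2 IFNa libraries the spread of that group rests on a pair of values. Of 12 receptor complex genes tested in culture, among those named here, Cd3g (0.47) and the coreceptor Cd4 (0.23) rose, and the adaptor Lat fell (-0.64). The list median was 0.06 beside 0.01 over all genes, of which 21.7% were called. The call of Cd4 was lost in 4 of 5 fits that left out 1 library (adjusted p up to 0.229).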

How the data were processed

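The 56 libraries were grouped by their titles (tissue, diet, week and replicate, or culture medium). The deposited values are read counts per gene symbol. Reads were aligned with STAR 2.7.3a to mm10 and counted with featureCounts, per the submitters' processing notes. The annotation release, strand setting and handling of reads with several matches were not given in the sources used here. The number of count columns that belong to no sample was 0, and no 2 columns were identical.

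Each segment was taken as a share of all Trbv or all Trav counts of its library. The share of the leading segment was compared by permutation of library labels, two-sided, within week and diet for tissue and within week for diet. All relabellings were enumerated where they numbered at most 200000, and 100000 were drawn otherwise. The p-values were adjusted (Benjamini-Hochberg) over the family of 12 comparisons, which held the culture comparisons of both leading segments. Counts of all genes were fitted with edgeR 4.0.16 (R 4.3.3; TMM, filterByExpr by group, robust quasi-likelihood test) with a threshold of 0.05 on the adjusted p, in 4 fits: week 0 and NCD libraries of both tissues, all spleen libraries, all VAT libraries, and the cultures. The fits were tested on simulated data. The SE of an edgeR fold change was taken from its F value. Shares, intervals and permutations used Python 3.11.15 with scipy 1.17.1.

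Alternatives were another denominator (constant region counts), alpha copies summed, low counts set to 0, RLE scaling, no filter, DESeq2 1.42.0, library sizes without the segments, a replicate block and leaving out each library. Leaving out annotated pseudogenes and summing all Trav14 symbols were chosen after seeing the data. Leaving out symbols with ps was not run, since 0 symbols hold these letters. Named segments were the leading and the 4 next of each chain in Tg+ libraries, the 6 highest of each chain in culture, any at or above 5% in a library, and up to 5 called per direction and comparison. The named segments, gene lists and comparisons were chosen with earlier results of these data known. Some single results on the receptor complex and marker lists are not reported here.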

Additional observations from a re-analysis of the deposited data

How the results depend on the processing

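The leading segments kept their direction between tissues and against the cultures under each alternative run, with 1 exception: per 100 constant region counts, Trbv2 was higher in VAT than in spleen by 3.89. On the same denominator the small Trbv2 differences in spleen turned (HFD minus NCD 1.47, late minus early weeks -0.83), the fall of Trbv2 over weeks in VAT passed (-8.57, adjusted p = 0.0052) and that of Trav14n-3 in VAT did not (-0.96, adjusted p = 0.273). The late minus early difference of Trav14n-3 in spleen became 0.65 with alpha copies summed and 3.13 with all Trav14 symbols summed, and its HFD difference in VAT 1.55 with all Trav14 symbols summed. The cause of these shifts was not tested.

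Leaving out 1 library gave -0.52 to 0.14 points for Trbv2 by diet in spleen, -2.28 to 0.64 in VAT, 6.08 to 10.2 for Trav14n-3 by diet in spleen, -5.82 to 0.29 over weeks in spleen and -9.27 to -6.67 over weeks in VAT. The segments called then numbered 0 to 1 for VAT week 16, 1 to 3 for the VAT mean of weeks, 0 to 1 for the spleen mean of weeks, 17 to 21 between tissues and 2 to 5 in culture (5 without IFNa replicate 2). With no filter on low counts 5 segments were called at VAT week 16 (2 with the filter) and 1 each at VAT week 2, VAT week 8 and NCD week 16 against week 0 in VAT, where none was called with it.

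Replicate numbers were shared between groups, and the labels do not say whether they pair the libraries, which were treated as unpaired. Same-numbered pairs deviated together (correlation over 0.1) in 0 of 13 pairs between tissues and 1 of 11 between diets in spleen. In VAT this held for 0 of 10 pairs and in culture for 0 of 2. Such correlations cannot show whether 2 libraries came from the same mouse. With the replicate number as a block, the Trav14n-3 difference by diet in spleen was 6.45 points (adjusted p = 0.0391), and 2 segments were called at VAT week 16, 2 for the VAT mean of weeks and 4 in culture. The block changed no other call of a leading segment's share. Depth limits the alpha chain most, with as few as 463 Trav counts in a spleen library.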

Other observations

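The rule for variable segments does not cover the joining segments of the alpha chain (60 Traj symbols). Of these, Traj21 and Traj2 are given here, with no naming rule set beforehand, and the others are not reported. Both are described with no test. Between these tissues 59.9% of all genes tested were called in the fit without HFD, so separation of libraries is common and does not set this pair apart. Traj21 held 7.0% ± 1.64 of Traj counts in spleen (4.08% to 10.3%, n = 26) and 16.2% ± 2.79 in VAT (9.34% to 22.3%, n = 25), and 24 of 25 VAT libraries lay above every spleen library. In culture it held 4.71%. Traj2 held 2.10% in spleen, 7.40% in VAT and 1.89% in culture, with 23 of 25 VAT libraries above every spleen library. A mean of 840 counts per spleen library, 881 per VAT library and 320 per culture lay behind these shares.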
